A study of Mus musculus with 19 samples.

Results

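T cells, natural killer (NK) cells and the interleukin 15 (IL-15) signal that NK cells depend on were followed in mouse endometrium through 10 genes, found by gene symbol among the 49089 genes of the count table. Cd3e, Cd3g and Cd8a encode parts of the T cell receptor complex and its coreceptor. Nkg7 and Gzma encode a granule protein and a granule protease of cytotoxic lymphocytes. Klrb1c and Ncr1 encode receptors of NK cells, Il2rb encodes the receptor chain that IL-2 and IL-15 share, and Il15 and Il15ra encode the cytokine and the receptor chain that presents it. All 10 were present in the table, 9 passed the filter for testing (3 or more CPM, counts scaled to library size, in 3 or more libraries), and Cd8a did not.

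Libraries were of endometrium scraped free of myometrium from wild-type C57Bl/6 females. The study describes its samples as pooled. CONT (n = 3, numbered 1, 2 and 4) came from virgin females at estrus. INT (n = 4) came from females mated with intact BALB/c males and taken 3.5 days post coitum (day 3.5 pc). SVX, SVX_VAS and VAS (n = 4 each) came from mated females whose partners had been surgically modified. For these 3 groups the name of the data column and the treatment label give different surgeries for the same library (libraries in SVX columns are labelled as mated with vasectomised males, for example), so the groups are called by their column names and no surgery is attached to any result. Mated females were 8 to 14 weeks old. The labels do not say that replicates were separate cohorts, and p-values measure the spread between these libraries.

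Totals ran from 12661266 to 31781270 counts per library. VAS replicates 2 and 3 stood apart, with the nuclear RNA Malat1 at 544 and 545 CPM against 8210 to 13963 CPM in the other 17 libraries. The labels describe 1 preparation for all libraries, and whether these 2 were made differently was not tested, so that their CPM may not be comparable with the rest. Among the mated libraries, INT replicates 1 and 2, SVX_VAS replicate 2 and VAS replicate 1 held 639 to 2286 CPM of Ltf, the estrogen-induced lactoferrin gene, against 15.4 to 272 CPM in the other 12 mated libraries and 1863 to 2830 CPM in estrus. Member counts against CONT are given with and without these libraries, as are the values and list counts in VAS that they moved most. The tissue's own markers were present in every group, and no epithelial, stromal or endothelial marker on the list was at 0 in any group.

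Mature NK cells kill through granules that hold perforin and granzymes, and T cells recognise antigen through a receptor that signals through CD3 chains. IL-15 is presented by the IL-15 receptor alpha chain on one cell to the IL-2 receptor beta and common gamma chains on a neighbouring lymphocyte, and NK cells need it to develop and survive. The uterus holds resident NK cells before implantation, which increase in number as the decidua forms, whereas T cells are a smaller population there.

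RefSeq promoter entries (250 bases before to 50 after the start, build GRCm38.p6) were found for 8 of the 10 genes, as 10 entries. Those of Cd3e and Cd3g are shown because both genes moved together across libraries, that of Ncr1 because it is a defining NK gene, and that of Il15ra because its level differed little between groups. Cd3g and Cd3e lie 18.3 kb apart on chromosome 9, both on the minus strand. Capitals mark matches on either strand to GGAAGT (core of ETS sites), TGTGGT (core of RUNX sites), TTCNNNGAA (STAT sites) or AANNGAAA (core of interferon regulatory factor sites), and no 2 matches in the sequences below overlap.
Cd3e (chr9:45009562-45009861, minus strand): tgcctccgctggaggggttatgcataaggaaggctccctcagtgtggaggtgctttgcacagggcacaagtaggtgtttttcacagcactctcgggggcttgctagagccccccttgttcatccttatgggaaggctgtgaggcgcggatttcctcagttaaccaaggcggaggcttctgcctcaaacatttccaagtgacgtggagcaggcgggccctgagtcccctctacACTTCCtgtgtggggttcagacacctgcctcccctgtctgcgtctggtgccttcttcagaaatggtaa
Cd3g (chr9:44980382-44980681, minus strand): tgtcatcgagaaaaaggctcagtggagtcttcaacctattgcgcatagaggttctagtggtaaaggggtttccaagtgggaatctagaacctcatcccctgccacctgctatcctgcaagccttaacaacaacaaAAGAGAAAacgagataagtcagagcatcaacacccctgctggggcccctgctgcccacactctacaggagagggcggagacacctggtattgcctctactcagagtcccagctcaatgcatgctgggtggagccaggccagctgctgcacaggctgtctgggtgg
Ncr1 (chr7:4337465-4337764, plus strand): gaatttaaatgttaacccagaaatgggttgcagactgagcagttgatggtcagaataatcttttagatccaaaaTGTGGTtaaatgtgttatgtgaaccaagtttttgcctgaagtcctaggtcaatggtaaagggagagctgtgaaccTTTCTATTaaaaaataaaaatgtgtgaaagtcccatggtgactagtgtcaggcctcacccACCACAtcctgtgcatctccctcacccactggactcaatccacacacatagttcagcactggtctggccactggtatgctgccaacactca
Il15ra (chr2:11705043-11705342, plus strand): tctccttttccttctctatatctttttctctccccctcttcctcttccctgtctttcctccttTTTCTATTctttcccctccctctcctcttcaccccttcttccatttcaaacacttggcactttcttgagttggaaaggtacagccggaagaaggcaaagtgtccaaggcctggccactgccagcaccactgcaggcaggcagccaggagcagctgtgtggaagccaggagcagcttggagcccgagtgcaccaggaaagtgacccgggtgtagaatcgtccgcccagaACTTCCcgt

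Counted from the start, with -1 the base before it, the first base of the match lay at -18 for the ETS core of Cd3e and at -115 for the interferon regulatory factor core of Cd3g. The Ncr1 entry held 2 RUNX cores, at -176 and -41, and an interferon regulatory factor core at -101. The Il15ra entry shown held an interferon regulatory factor core at -187 and an ETS core at 42. Another Il15ra entry (chr2:11705462-11705761), not shown, held an interferon regulatory factor core at 27 and no ETS core. None of the 4 entries shown held the STAT letters, and among the other members' entries Nkg7 held them once, at -220. Of 32851 mouse promoters of this length, 23.8% held the ETS core, 16.8% the RUNX core, 8.30% the STAT letters and 23.9% the interferon regulatory factor core.

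Cd3e, Cd3g, Nkg7, Klrb1c, Ncr1 and Il2rb were higher in day 3.5 pc endometrium than in estrus in every mated group, and Gzma in INT, SVX and VAS, whereas no call was made for Il15 or Il15ra. The calls of Gzma in INT and SVX, that of Cd3e in SVX, which held in 11 of 24 settings with overlap of CONT, and that of Klrb1c in INT, lost in 5 alternatives, were the least firm. Those of Gzma in VAS and of Cd3e and Klrb1c in SVX_VAS were lost in fewer alternatives. The Gzma call in VAS, however, was lost without both VAS libraries low in Malat1, replicates 2 and 3, which held its highest values. Cd3e, Cd3g and Gzma were under 3 CPM in every CONT library and Nkg7, Klrb1c and Ncr1 in 2 of the 3, so that these members passed the filter on low counts (3 CPM in 3 libraries) through the mated groups, and nothing is read from the counts and medians over the members tested. Members called higher than in CONT numbered 7 of the 9 tested in INT, 7 in SVX, 6 in SVX_VAS and 7 in VAS, and 0 were called lower. A call needed a Benjamini-Hochberg false discovery rate (FDR) of 0.05 or less in edgeR's quasi-likelihood test and at least a 1.5-fold difference. Over all 17222 genes tested, 20.9% were called higher in INT, 23.1% in SVX, 22.1% in SVX_VAS and 23.2% in VAS, and 12.7%, 18.4%, 16.4% and 17.2% were called lower. The median logFC (log2 fold change) of the members tested was 1.47, 1.67, 1.47 and 1.69 in that order, against -0.01, -0.01, -0.02 and -0.07 over all genes tested. These 4 comparisons share the CONT libraries. In tissue RNA, fewer cells of a type and less RNA per cell cannot be told apart.

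**Figure D1:**
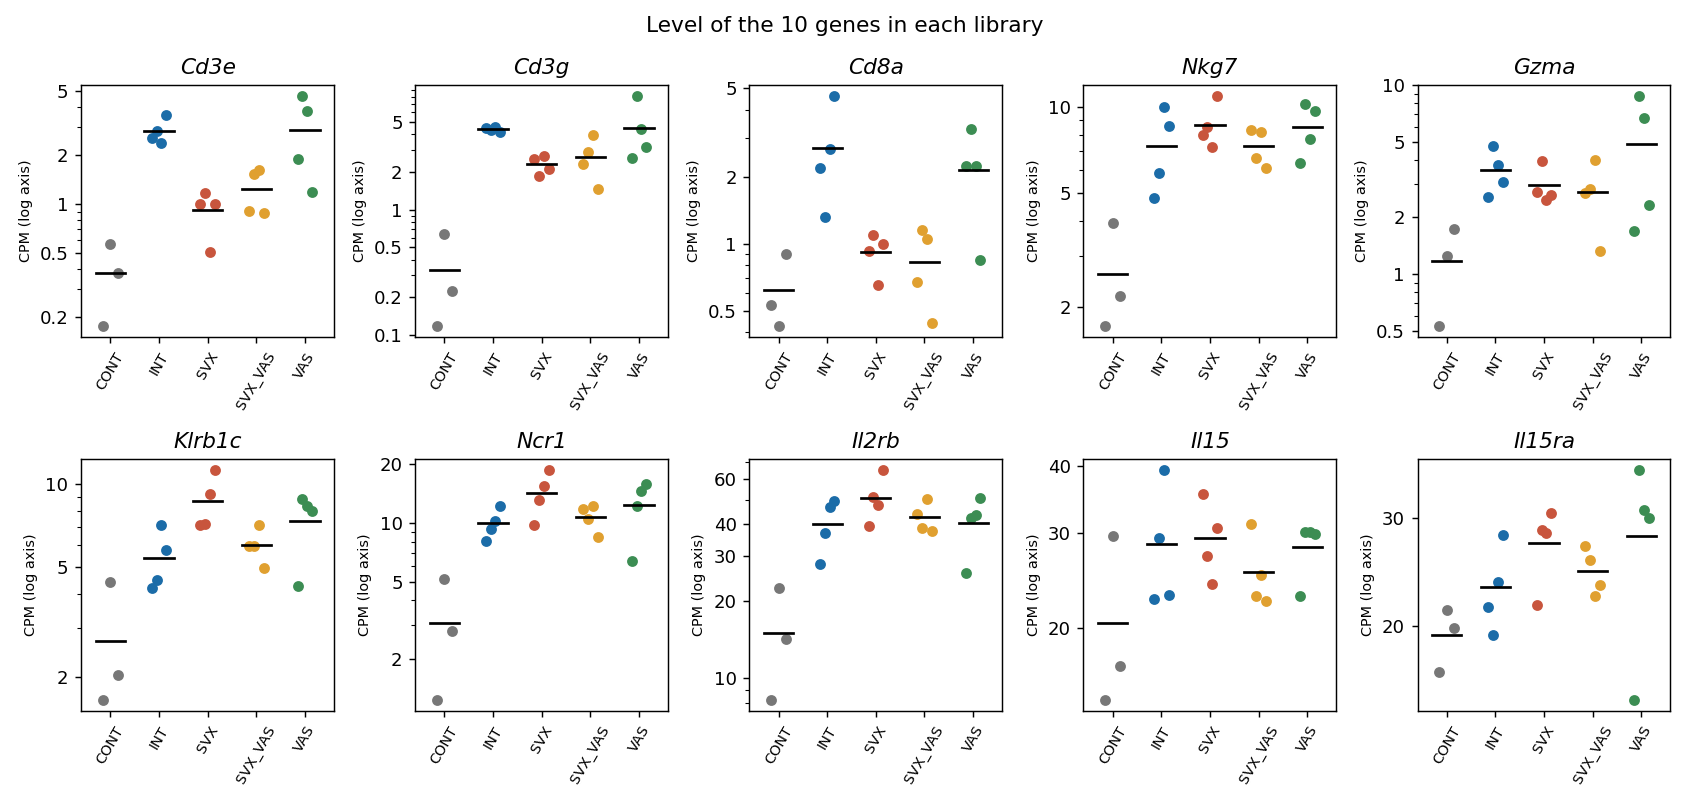
Level of each gene (CPM, log axis, a scale for each panel) in the 3 estrus (CONT) and 16 mated libraries; points are libraries and bars are group means. The 4 INT libraries sit between 2.38 and 3.55 CPM for Cd3e, above all SVX and SVX_VAS libraries, whereas the groups of Il15 overlap throughout.

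Cd3e (ENSMUSG00000032093.6, chr9:44998740-45009627, minus strand, GRCm38) encodes the CD3 epsilon chain. It was at 0.177, 0.571 and 0.377 CPM in CONT (3, 16 and 5 counts), at 2.55, 2.82, 2.38 and 3.55 CPM in INT, at 1.01, 1.17, 0.509 and 0.997 CPM in SVX, at 0.912, 1.54, 1.64 and 0.877 CPM in SVX_VAS and at 1.90, 4.64, 3.78 and 1.19 CPM in VAS. INT lay wholly above CONT, SVX and SVX_VAS, and VAS lay wholly above SVX and overlapped INT and SVX_VAS. Against CONT the logFC was 2.84 ± 0.50 (SE) in INT (edgeR FDR 0.000252), 1.23 ± 0.50 in SVX (FDR 0.0454), 1.66 ± 0.49 in SVX_VAS (FDR 0.00953) and 2.88 ± 0.50 in VAS (FDR 0.000171). The SVX call was the least firm of these and was made in 11 of 24 settings: limma-voom gave an FDR of 0.255, leaving out CONT replicate 1 gave a logFC of 0.91 (FDR 0.176), and other filters or other libraries left out ended it too. The SVX_VAS call was lost without CONT replicate 1 (logFC 1.34, FDR 0.0517) and in limma-voom (FDR 0.103). Exons of Cd3e overlap those of Gm48719 on the other strand, and whether counting used strand is not given in the sources used here, so their reads cannot be told apart.

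Cd3g (ENSMUSG00000002033.13, chr9:44969572-44980431, minus strand), the neighbouring gene for the CD3 gamma chain, showed the largest fold of the members in each comparison with CONT. It was at 0.118, 0.642 and 0.226 CPM in CONT (2, 18 and 3 counts) and at 4.51, 4.32, 4.59 and 4.17 CPM in INT. The level was 2.55, 1.88, 2.69 and 2.14 CPM in SVX, 2.30, 2.92, 3.93 and 1.46 CPM in SVX_VAS, and 2.58, 8.07, 4.39 and 3.16 CPM in VAS. No mated library reached down to the CONT range, and the INT libraries differed from each other by less than any other group. The logFC against CONT was 3.61 ± 0.52 in INT (edgeR FDR 4.49e-05), 2.68 ± 0.51 in SVX (FDR 0.000292), 2.88 ± 0.51 in SVX_VAS (FDR 0.000198) and 3.66 ± 0.52 in VAS (FDR 2.89e-05). All 4 calls held in each alternative that gave a value, with logFC from 2.31 to 4.70.

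Cd8a (ENSMUSG00000053977.13, chr6:71373427-71379173, plus strand), the alpha chain of the CD8 coreceptor of cytotoxic T cells, was under the filter. It was at 0.532, 0.428 and 0.904 CPM in CONT, 2.18, 1.31, 2.66 and 4.59 CPM in INT, 0.929, 1.09, 0.654 and 0.997 CPM in SVX, 0.672, 1.16, 1.05 and 0.438 CPM in SVX_VAS, and 2.24, 3.29, 2.24 and 0.842 CPM in VAS. INT lay above CONT without overlap, and SVX, SVX_VAS and VAS overlapped CONT. In VAS the overlap came from replicate 4, and replicates 2 and 3 (3.29 and 2.24 CPM) were the libraries low in Malat1. With the filter lowered to 1 CPM (20903 genes tested), Cd8a was called higher in INT (logFC 2.09 ± 0.49, edgeR FDR 0.00265, where 19.9% of genes were called higher) and in VAS (1.81 ± 0.49, FDR 0.00552, 23.1%). No CONT library reached 1 CPM, so that Cd8a passed this filter too through the mated groups. Nothing is therefore read from these calls against the shares. In SVX the logFC was 0.56 with a 95% interval from -0.50 to 1.62, and in SVX_VAS it was 0.41 with an interval from -0.64 to 1.46, and neither passed the test.

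Nkg7 (ENSMUSG00000004612.9, chr7:43437073-43438249, plus strand), a membrane protein of cytotoxic granules, was at 1.71, 3.92 and 2.18 CPM in CONT and between 4.81 and 10.9 CPM in the 16 mated libraries, with no overlap. Its logFC against CONT was 1.47 ± 0.30 in INT (edgeR FDR 0.000854), 1.72 ± 0.31 in SVX (FDR 0.000177), 1.47 ± 0.30 in SVX_VAS (FDR 0.000714) and 1.69 ± 0.30 in VAS (FDR 0.000235). These calls held in every alternative. Within the mated libraries the 4 that were high in Ltf had 4.81 to 6.61 CPM and the other 12 had 6.14 to 10.9 CPM.

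Gzma (ENSMUSG00000023132.7, chr13:113093825-113100981, minus strand), the granule protease granzyme A, was at 0.532, 1.25 and 1.73 CPM in CONT, 2.55, 4.76, 3.8 and 3.06 CPM in INT, 2.71, 3.98, 2.47 and 2.63 CPM in SVX, 2.69, 2.81, 4.0 and 1.32 CPM in SVX_VAS, and 1.68, 8.71, 6.73 and 2.32 CPM in VAS. The highest values of all, 8.71 and 6.73 CPM, were in the VAS libraries low in Malat1. Gzma was called higher in INT (logFC 1.60 ± 0.55, edgeR FDR 0.0237), in SVX (1.34 ± 0.55, FDR 0.0469) and in VAS (2.06 ± 0.55, FDR 0.00474), and in SVX_VAS it was 1.21 ± 0.54 (FDR 0.0708). The SVX_VAS difference was called in 5 alternatives, among them DESeq2 (FDR 0.0443) and the fit without VAS replicates 2 and 3 (logFC 1.22, FDR 0.0125). Without VAS replicates 2 and 3 the VAS value was 0.77 (FDR 0.170) and was no longer called. The INT call was lost without CONT replicate 1 (logFC 1.26, FDR 0.110), without CONT replicate 2 (1.66, FDR 0.0566) without INT replicate 2 (1.43, FDR 0.0557) and in limma-voom (1.72, FDR 0.0742). The SVX call was kept in 13 of 28 alternatives.

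Ncr1 (ENSMUSG00000062524.4, chr7:4337724-4345164, plus strand), which encodes the activating NK receptor NKp46, was at 1.24, 5.17 and 2.79 CPM in CONT and 8.12, 9.27, 10.2 and 12.2 CPM in INT. It was at 9.75, 13, 15.6 and 18.7 CPM in SVX, 11.8, 10.5, 12.2 and 8.48 CPM in SVX_VAS, and 6.38, 12.2, 14.6 and 15.9 CPM in VAS. All 16 mated libraries exceeded all 3 estrus libraries. The logFC was 1.68 ± 0.39 in INT (edgeR FDR 0.00222), 2.20 ± 0.40 in SVX (FDR 0.000211), 1.79 ± 0.39 in SVX_VAS (FDR 0.00118) and 1.98 ± 0.40 in VAS (FDR 0.000538). All of these calls held in every alternative. With 1 library left out at a time, the logFC in INT ran from 1.30 to 2.31.

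Klrb1c (ENSMUSG00000030325.16, chr6:128778485-128789215, minus strand) encodes NK1.1, the receptor by which NK cells of this strain are usually sorted. Its level was 1.65, 4.42 and 2.03 CPM in CONT, 4.21, 4.51, 7.08 and 5.77 CPM in INT, 7.12, 7.19, 9.23 and 11.2 CPM in SVX, 5.95, 5.95, 7.14 and 4.97 CPM in SVX_VAS, and 4.26, 8.81, 8.32 and 8.0 CPM in VAS. CONT replicate 2 overlapped the lower INT and VAS libraries. The logFC was 0.98 ± 0.33 in INT (edgeR FDR 0.0222), 1.67 ± 0.34 in SVX (FDR 0.000527), 1.13 ± 0.33 in SVX_VAS (FDR 0.00879) and 1.42 ± 0.33 in VAS (FDR 0.00187). The INT call was lost without CONT replicate 1 (0.72, FDR 0.116), without CONT replicate 4 (0.81, FDR 0.0953), without INT replicate 3 (0.79, FDR 0.0789), in limma-voom (FDR 0.0652) and in a fit on the compared libraries alone (FDR 0.0524), and the SVX_VAS call without CONT replicate 1 (0.87, FDR 0.0540). Klrb1c belongs to a family of similar genes and shares exon sequence with Gm44511 on the same strand, so its count is uncertain to that extent.

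Il2rb (ENSMUSG00000068227.8, chr15:78479256-78495271, minus strand) carried the most counts of the lymphocyte members. It was at 8.27, 22.6 and 14.2 CPM in CONT, 28.0, 36.9, 46.9 and 49.3 CPM in INT, 39.5, 51.3, 47.7 and 65.1 CPM in SVX, 43.8, 38.7, 50.2 and 37.8 CPM in SVX_VAS, and 25.8, 42.5, 43.5 and 50.6 CPM in VAS. No estrus library reached the lowest mated one. The logFC was 1.41 ± 0.30 in INT (edgeR FDR 0.00118), 1.75 ± 0.31 in SVX (FDR 0.000154), 1.49 ± 0.30 in SVX_VAS (FDR 0.000651) and 1.42 ± 0.30 in VAS (FDR 0.000887), and these calls held in every alternative.

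**Figure D2:**
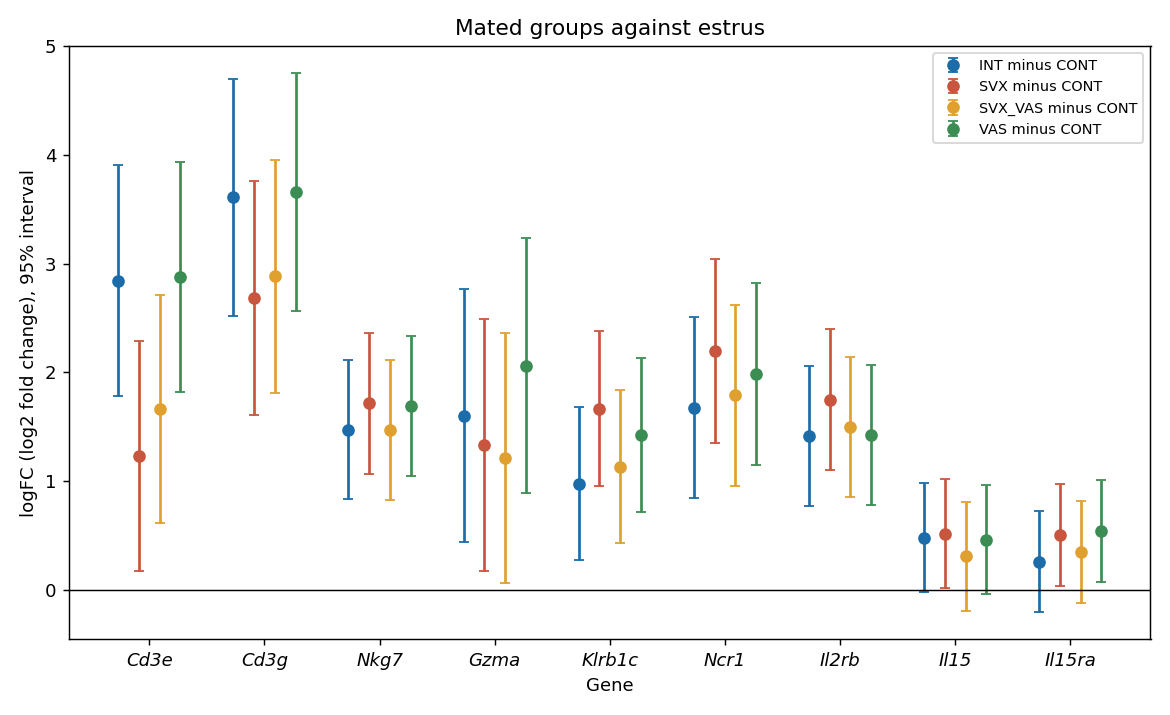
Difference of each mated group from estrus (logFC, log2 scale) for the 9 genes tested; points are the edgeR estimates and bars their 95% intervals. Cd3g reaches 3.61 in INT and 3.66 in VAS, whereas the Il15ra estimates lie between 0.26 and 0.54.

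Il15 (ENSMUSG00000031712.9, chr8:82331632-82403222, minus strand), the cytokine itself, was at 14.8, 29.6 and 17.0 CPM in CONT, 22.7, 29.4, 39.3 and 23.0 CPM in INT, 35.4, 27.3, 24.2 and 30.7 CPM in SVX, 31.2, 23.0, 25.1 and 22.4 CPM in SVX_VAS, and 23.0, 30.1, 30.1 and 29.96 CPM in VAS. CONT replicate 2 lay within the mated range and the other 2 estrus libraries lay below all 16 mated ones. No comparison was called: the logFC was 0.48 in INT (95% interval -0.02 to 0.98, edgeR FDR 0.106), 0.52 in SVX (0.02 to 1.02, FDR 0.0721), 0.31 in SVX_VAS (-0.19 to 0.81, FDR 0.287) and 0.46 in VAS (-0.04 to 0.96, FDR 0.104). Without CONT replicate 2 all 4 were called, with logFC of 0.85 (FDR 0.00689), 0.88 (FDR 0.00401), 0.68 (FDR 0.0205) and 0.83 (FDR 0.00634). CONT replicate 2 was also the deepest library and had the highest level of the 3 for Ncr1, Il2rb, Nkg7 and Klrb1c.

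Il15ra (ENSMUSG00000023206.16, chr2:11705290-11734317, plus strand), the chain that presents IL-15, was at 16.8, 21.3 and 19.8 CPM in CONT, 21.5, 19.3, 23.6 and 28.2 CPM in INT, 21.6, 28.8, 28.4 and 30.7 CPM in SVX, 27.1, 25.6, 22.4 and 23.3 CPM in SVX_VAS, and 15.1, 36.0, 31.0 and 30.03 CPM in VAS. SVX and SVX_VAS lay above CONT without overlap, INT and VAS did not, and VAS replicate 1 was the lowest library of all. The logFC was 0.26 in INT (95% interval -0.20 to 0.73, edgeR FDR 0.353), 0.50 in SVX (0.04 to 0.97, FDR 0.0618), 0.35 in SVX_VAS (-0.12 to 0.82, FDR 0.193) and 0.54 in VAS (0.07 to 1.01, FDR 0.0468, under the 1.5-fold requirement). Without VAS replicate 1 the VAS value was 0.75 (FDR 0.000535) and was called, and without SVX replicate 1 the SVX value was 0.60 (FDR 0.0355) and was called.

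Counted as groups whose libraries do not overlap, 6 tested members were higher than CONT in INT, 7 in SVX, 7 in SVX_VAS and 5 in VAS, where 31%, 35.2%, 33.5% and 26.7% of all genes tested were.

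On a scale per kilobase of exon, Il15 had the highest mean level of the members in estrus, 9.05 ± 3.54 CPM per kb (SD, n = 3), ahead of Il2rb at 5.40 ± 2.59 and Il15ra at 4.34 ± 0.515. In each mated group Il2rb ranked first and Il15 second, with 14.5 ± 3.51 and 12.7 ± 3.43 CPM per kb in INT (SD, n = 4). Cd8a was the lowest in every group, from 0.171 ± 0.0688 CPM per kb in CONT to 0.739 ± 0.381 in INT. Of the T cell members, Cd3g was at 4.11 ± 0.175 and Cd3e at 1.97 ± 0.358 CPM per kb in INT, and of the NK members Ncr1 was at 6.45 ± 1.11 and Klrb1c at 1.82 ± 0.444.

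Ordered by mean log2 CPM, CONT was lowest for all 10 members. The order was CONT, SVX, SVX_VAS, VAS and INT for Cd3e and Cd3g, and CONT, INT, SVX_VAS, VAS and SVX for Nkg7, Klrb1c, Ncr1 and Il15ra. Of the 40 steps between neighbours in these orders, 4 did not overlap (CONT to SVX for Cd3g, and CONT to INT for Nkg7, Ncr1 and Il2rb), each with p = 0.0571 in a two-sided exact permutation test, the smallest that 3 libraries against 4 can give. All steps between neighbouring mated groups overlapped, so that no such pair was apart by more than its spread.

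The mated groups were compared with INT to ask whether the surgery on the male partner went with a different lymphocyte signal. No member was called in SVX, SVX_VAS or VAS against INT by edgeR, and 0% of the 17222 genes tested were called in any of the 3. For VAS that share rested on single libraries, being 3.34% (574 genes) without VAS replicate 1 and 0.774% (133 genes) without VAS replicate 4, with no member among them. At an unadjusted p under 0.05 there were 3 members in SVX, 1 in SVX_VAS and 0 in VAS, where 4.35%, 1.97% and 10.6% of genes were. DESeq2 and limma-voom also called 0 members, with DESeq2 calling 3, 2 and 0 genes in SVX, SVX_VAS and VAS, and limma-voom 0, 0 and 1661 (9.64%). These 3 comparisons share the INT libraries.

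**Figure D3:**
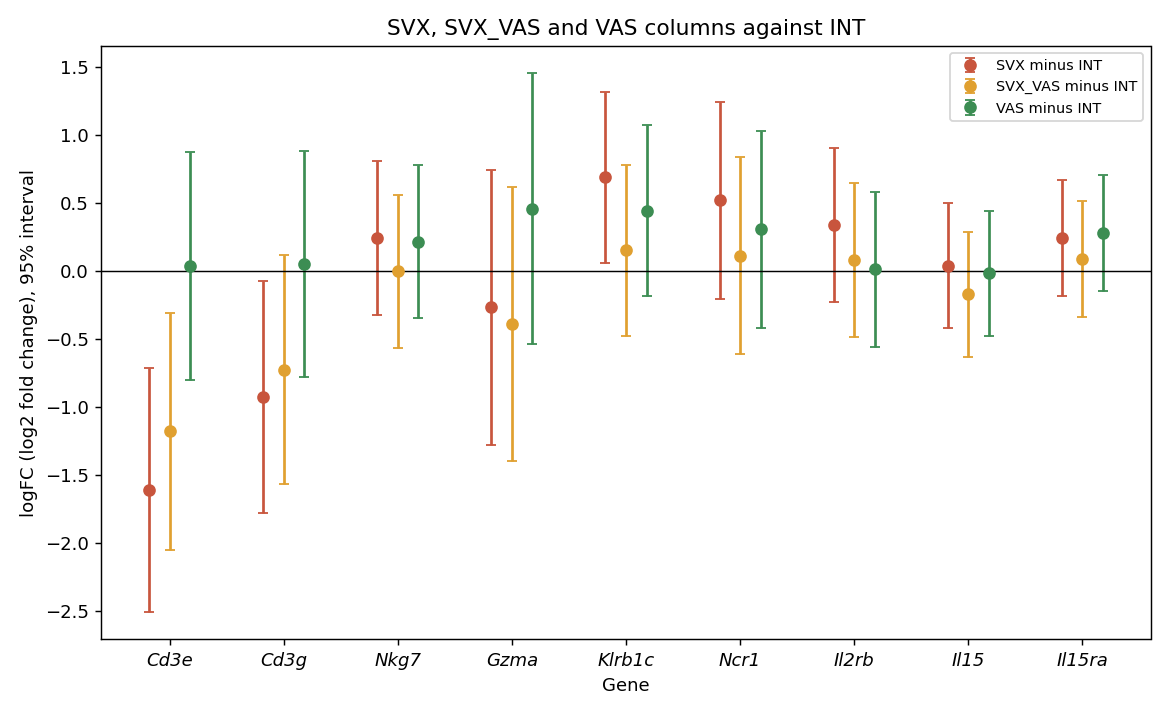
Difference of the SVX, SVX_VAS and VAS groups from INT (logFC, log2 scale) for the 9 genes tested; points are edgeR estimates and bars 95% intervals. Cd3e lies at -1.61 in SVX and -1.18 in SVX_VAS and at 0.04 in VAS, and the intervals of Nkg7, Ncr1, Il2rb, Il15 and Il15ra all include 0.

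The T cell members lay below INT in both SVX and SVX_VAS. Every SVX and every SVX_VAS library was below every INT library for Cd3e, Cd3g and Cd8a. For Cd3e the logFC was -1.61 in SVX (95% interval -2.51 to -0.71, unadjusted p = 0.00156 in edgeR) and -1.18 in SVX_VAS (-2.05 to -0.31, unadjusted p = 0.0109), and neither passed after adjustment (FDR 0.9997 in SVX). Cd3e entered the test only through INT replicate 4 and VAS replicates 2 and 3, the 3 libraries in which it reached 3 CPM, so that it was admitted by groups in which it was high. With no filter its logFC was -1.62 in SVX and -1.18 in SVX_VAS. For Cd3g, in the filtered fit, the logFC was -0.92 in SVX (-1.78 to -0.07) and -0.73 in SVX_VAS (-1.57 to 0.12). Cd3g too was admitted mainly by INT and VAS, since it reached 3 CPM in 0 SVX libraries and 1 SVX_VAS library, and with no filter it stood at -0.93 and -0.72. Cd8a, under the 1 CPM filter, stood at -1.53 in SVX (-2.45 to -0.61) and -1.68 in SVX_VAS (-2.60 to -0.76). In VAS the same genes overlapped INT, with a logFC of 0.04 for Cd3e (-0.80 to 0.87), 0.05 for Cd3g (-0.78 to 0.88) and -0.28 for Cd8a (-1.15 to 0.58). This overlap rested on VAS replicates 2 and 3, the libraries low in Malat1. The other 2 VAS libraries lay below all 4 INT libraries for Cd3e (1.90 and 1.19 CPM), for Cd3g (2.58 and 3.16 CPM) and for Gzma (1.68 and 2.32 CPM), and overlapped INT for Cd8a. Without replicates 2 and 3 the mean log2 CPM in VAS differed from that in INT by -0.84 for Cd3e, -0.60 for Cd3g, -0.77 for Cd8a and -0.77 for Gzma, values with no test, and the edgeR logFC of Cd3g was -0.62 and that of Gzma -0.84, neither called.

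Two-sided exact permutation tests on log2 CPM, added after the values had been seen, gave p = 0.0286 for these 3 genes in both SVX and SVX_VAS, the smallest p that 4 libraries against 4 can give. Klrb1c was higher in SVX than in INT without overlap, at 7.12 to 11.2 against 4.21 to 7.08 CPM (p = 0.0286, exact permutation test), with the highest INT library just under the lowest SVX library. The other 23 of the 30 tests gave p above 0.05. Among the tested members 1 was higher and 2 were lower without overlap in SVX, where 1.35% and 1.25% of all genes tested were, and 0 were higher and 2 lower in SVX_VAS, where 0.964% and 0.79% were. The 2 lower members were Cd3e and Cd3g, which entered the test through INT and VAS, so that nothing is read from their count against these shares. In VAS 0 were higher or lower without overlap, where 0.633% and 0.598% of genes were. Among the 4 mated groups together, an edgeR test found no member at an FDR of 0.05 and 1 at an unadjusted p under 0.05, and 0% of genes were called. Without VAS replicate 4 Cd3e was called (FDR 0.0437), with 1% of the genes tested.

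For Ncr1, Klrb1c, Il2rb and the IL-15 pair, the interval of the difference from INT limits how far the groups could be apart. For Ncr1 it ran from -0.20 to 1.24 in SVX, from -0.61 to 0.84 in SVX_VAS and from -0.42 to 1.03 in VAS. For Klrb1c it ran from 0.06 to 1.32 in SVX, from -0.48 to 0.78 in SVX_VAS and from -0.18 to 1.07 in VAS. For Il2rb it ran from -0.23 to 0.91 in SVX, from -0.49 to 0.65 in SVX_VAS and from -0.56 to 0.58 in VAS. For Il15 the intervals were -0.42 to 0.50, -0.63 to 0.29 and -0.47 to 0.44, and for Il15ra -0.19 to 0.67, -0.34 to 0.52 and -0.15 to 0.71, in the same order.

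A ratio of 2 CPM values within a library does not depend on its scaling factor, and 14 pairs of genes were compared in this way, in 112 tests, after the values had been seen. The ratios were tested as differences of log2 CPM, whose prior count of 2 pulls in the ratios of genes with few counts, such as Cd3e and Cd3g in estrus. Cd3e relative to Ncr1, T cell against NK cell message, was 31.5, 30.4, 23.3 and 29.1 per 100 in INT, 10.3, 8.98, 3.27 and 5.34 in SVX, 7.72, 14.7, 13.4 and 10.3 in SVX_VAS, and 29.8, 37.9, 25.9 and 7.49 in VAS. SVX and SVX_VAS lay below INT without overlap (difference in log2 ratio -2.03 and -1.26, p = 0.0286 in each exact permutation test), and 3 of the 4 VAS libraries lay in or above the range of INT. Cd3g relative to Ncr1 was also below INT without overlap in SVX and SVX_VAS, with differences of -1.40 and -0.90 (p = 0.0286, exact permutation test), and 2 of the 4 VAS libraries lay below the range of INT. Against INT these ratios restate differences already seen for Cd3e and Cd3g, and they are no separate test.

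Relative to Ptprc, the CD45 gene of all leukocytes, which itself was 2.54-fold higher in INT than in CONT (edgeR FDR 0.000252), the members did not move alike. Over all 16 mated libraries against the 3 of CONT, the log2 ratio of Cd3g to Ptprc was 1.62 higher (p = 0.00206, exact permutation test, the smallest possible) and that of Ncr1 was 0.62 higher (p = 0.00619). Cd3g reached the filter's level in 0 CONT libraries and Ncr1 in 1, so both were admitted through the mated groups. Both were already called higher than CONT, so that these 2 ratios are no separate test and nothing is read from their p-values. The ratio of Il15 to Ptprc was 0.95 lower on the log2 scale (difference -0.95) and that of Il15ra 1.05 lower (difference -1.05), each without overlap and with p = 0.00206 in the exact permutation test. For the other 6 members the ratio to Ptprc did not pass the exact permutation test, with p from 0.303 for Il2rb to 0.966 for Gzma. For Cd3e and Cd8a this pools groups that went opposite ways. The log2 ratio of Cd3e to Ptprc was 1.22 above CONT in INT, without overlap (p = 0.0571, exact permutation test, the smallest possible). In SVX it differed by -0.43, with overlap. That of Cd8a differed from CONT by 0.42 in INT, 0.04 in VAS, -1.02 in SVX and -0.98 in SVX_VAS, each with overlap. Il2rb relative to Il15 stood at 56.0, 76.5 and 83.6 per 100 in CONT and at 112 to 214 per 100 in the mated libraries, a difference of 1.12 on the log2 scale (p = 0.00206, exact permutation test). For Il15ra relative to Il15 the difference was -0.10 (p = 0.696, exact permutation test).

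**Figure D4:**
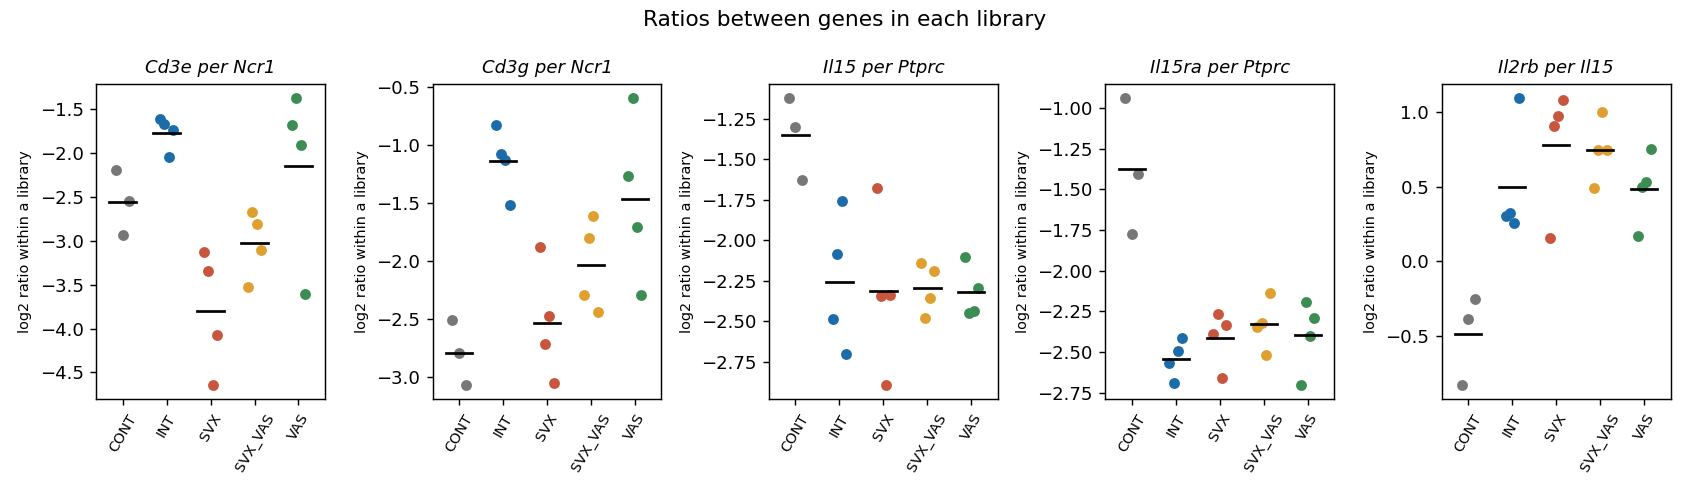
Ratio between genes within each library (log2 scale) by group; points are libraries and bars are group means. Cd3e per Ncr1 is lower in SVX and SVX_VAS than in INT without overlap, and all 16 mated libraries lie below the estrus libraries for Il15 and Il15ra per Ptprc and above them for Il2rb per Il15.

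Across the 16 mated libraries Il15 and Il15ra were not closely related. Pearson's r was 0.23 (p = 0.401, permutation test) and Spearman's rho 0.36 (p = 0.175, permutation test), the same after adjustment over the 3 relations computed, and r was 0.31 without INT replicate 3 and SVX_VAS replicate 4, the libraries farthest from the median of Il15. Il15 and the mean of the 8 lymphocyte members had r = 0.37, and 0.16 without the same libraries. Il15ra and that mean had r = 0.52 over the 16 libraries, and r was 0.28 without VAS replicates 1 and 2 and 0.27 without VAS replicates 2 and 3. Taken as deviations from group means, which leaves out differences between groups, r was 0.69, and 0.59 without VAS replicates 2 and 3. No p is given for a mean over members that were chosen with results known.

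By Pearson correlation of log2 CPM over all 19 libraries, the tested genes most like Cd3e were Bcl11b (r = 0.949), a transcription factor of T cell commitment, Lat (r = 0.946), the adaptor of T cell receptor signalling, Cd163l1 (r = 0.939), Podnl1 (r = 0.935) and Blk (r = 0.927), and Cd3g ranked 17th (r = 0.88). Those most like Gzma were Samsn1, Hspa12a, Kcnt2, C79130 and Gm15711 (r from 0.907 to 0.913). Those most like Il15 were Lrrn3 (r = 0.89), Sulf1 (r = 0.88), Ang (r = 0.84), Khdrbs3 (r = 0.84) and Retsat (r = 0.83). Of the members, Nkg7 was the nearest to Il15, at rank 31 (r = 0.78), and Il15ra stood at rank 4486 (r = 0.46). The points share the difference between estrus and day 3.5 pc, and no test is attached to these values.

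Further genes of the same cells and pathways came from lists chosen with earlier results of these data known. Of 20 further T cell genes 10 passed the filter, and 7 of these were called higher in INT than in CONT and none lower. In INT, SVX, SVX_VAS and VAS, 20.9%, 23.1%, 22.1% and 23.2% of all genes tested were called higher. In the same order 12.7%, 18.4%, 16.4% and 17.2% were called lower. Genes low in estrus can pass the filter through the mated groups, as some members did. Nothing is therefore read from the counts and medians against CONT of this and the following lists. Among the called T cell genes with the largest logFC in INT were Lat (2.47), Trbc2 (2.32), a constant region of the T cell receptor, Cd4 (2.29), the coreceptor of helper T cells, and Zap70 (1.97), a kinase of T cell receptor signalling. In SVX and SVX_VAS 7 were higher, and in VAS 8 were higher and 1 lower, Cd247 (logFC -1.07, edgeR FDR 0.0470), whose VAS libraries ranged from 5.23 to 35.6 CPM. The median logFC of the 10 was 1.81 in INT, 1.36 in SVX, 1.54 in SVX_VAS and 1.89 in VAS. Over all genes tested it was -0.01, -0.01, -0.02 and -0.07. Lat and Trbc2 shared the pattern of Cd3e, with 1.25 to 2.17 and 1.41 to 2.28 CPM in SVX and 1.68 to 2.59 and 1.68 to 2.11 CPM in SVX_VAS against 2.95 to 4.88 and 2.71 to 3.69 CPM in INT, and no other gene of this list was lower than INT without overlap in either group. These 2 were picked for that pattern and reached 3 CPM in INT and VAS libraries alone, so that the filter admitted them through groups in which they were high. The list as a whole did not share the pattern: its median logFC against INT was -0.08 in SVX and -0.20 in SVX_VAS, and Trbc1, another T cell receptor constant region, stood at 0.26 and 0.13.

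Of 22 further NK and innate lymphoid genes 19 were tested. Beside 20.9% and 12.7% of all genes tested, 11 of them were called higher and 1 lower in INT. Those with the largest values were Xcl1 (logFC 2.38), a chemokine made by NK cells, Il7r (2.31), the IL-7 receptor, Itga1 (1.88), the integrin CD49a of tissue-resident NK cells, Klrd1 (1.83), the CD94 receptor chain, and Tbx21 (1.66), the transcription factor T-bet. The kinase gene Styk1 was lower (logFC -1.42, edgeR FDR 2.47e-05). In SVX 14 were higher and 3 lower (23.1% and 18.4% of all genes tested), in SVX_VAS 13 and 2 (22.1% and 16.4%), and in VAS 15 and 1 (23.2% and 17.2%).

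All 7 tested genes of the 11 cytotoxic granule and effector genes were called higher in each of the 4 mated groups, where 20.9% to 23.2% of all genes tested were. The rest of the 11 were under the filter, which genes low in estrus can pass through the mated groups. In VAS without its replicates 2 and 3, 6 of the 7 were called higher, beside 36.2% of all genes called in either direction. In INT the logFC was 2.23 for Gzmb (granzyme B), 1.95 for Gzmc (granzyme C), 1.65 for Prf1 (perforin), 1.35 for Fasl (Fas ligand) and 1.19 for Ccl5, a chemokine of cytotoxic lymphocytes. Gzmb was at 3.01 to 9.88 CPM in CONT, 19.2 to 39.0 CPM in INT and 35.8 to 44.3 CPM in SVX.

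Genes of the common gamma chain cytokines, to which IL-15 belongs, were called in both directions. Of 19, 16 were tested, and 6 were called higher and 5 lower in INT, beside 20.9% and 12.7% of all genes tested. The cytokine gene Il9 (logFC 3.19, edgeR FDR 0.0362) and Il2rg (1.84), the common gamma chain with which Il2rb pairs, were higher. The transducer gene Stat5a (-1.48) and Il4ra (-1.16), a receptor chain for IL-4, were lower, and Il7 (1.12), the T cell and innate lymphocyte growth factor, was higher. In SVX 7 were higher and 5 lower (23.1% and 18.4% of all genes tested), in SVX_VAS 6 and 5 (22.1% and 16.4%), and in VAS 4 and 6 (23.2% and 17.2%). Of 10 factors that activate or attract NK cells 6 were tested, and 4 were higher and 1 lower in INT, beside 20.9% and 12.7% of all genes tested. The called factors were Cxcl9 (3.10), Cxcl12 (2.50) and Cxcl10 (1.52), chemokines, Tgfb1 (1.21), and the membrane chemokine Cx3cl1 (-1.26).

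Markers of other cells moved with the same comparison, in which 20.9% of all genes tested were called higher and 12.7% lower in INT. The summed level of 5 pan-leukocyte genes was 123 to 191 CPM in CONT and 237 to 285 CPM in INT, with 4 called higher and 1 lower. The 5 endothelial markers were called higher in INT, with a sum of 136 to 207 CPM in CONT and 547 to 835 CPM in INT. Of 5 epithelial markers 4 were called lower in INT, with 2990 to 4102 CPM in CONT and 566 to 2114 CPM in INT. Of 5 red blood cell markers 4 were called higher in INT, of 6 macrophage markers 4 were higher and 1 lower, and the 1 B cell marker tested was lower. The part of tissue composition in the rise of the members was not tested. Among SVX, SVX_VAS and INT the pan-leukocyte sums overlapped, at 207 to 314, 206 to 240 and 237 to 285 CPM. Of the 5 genes, Coro1a, an actin-binding protein gene of leukocytes, was lower in every SVX_VAS library (28.1 to 33.9 CPM) than in every INT library (34.3 to 41.7 CPM). Whether this bears on the lower values of Cd3e, Cd3g and Cd8a in SVX_VAS was not tested. The ratio of Cd3e to Ptprc was lower in SVX and in SVX_VAS than in INT (difference in log2 ratio -1.65 and -1.03, p = 0.0286 in each exact permutation test). This restates the difference already seen for Cd3e, a gene admitted by INT and VAS, so nothing further is read from it.

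Libraries high in Ltf lay in the lower part of the mated range for the NK members. Il2rb was at 25.8 to 38.7 CPM in these 4 against 37.8 to 65.1 CPM in the other 12 mated libraries, and Ncr1 at 6.38 to 10.5 against 8.48 to 18.7 CPM. Cd3g was at 2.58 to 4.51 CPM in these 4, within the range of the others. Without the 4, members called against CONT numbered 7 in INT, 6 in SVX, 6 in SVX_VAS and 8 in VAS, where Il15ra joined (logFC 0.75, edgeR FDR 0.000623), and 40.6%, 42.1%, 41.1% and 47.5% of all genes were called in either direction. Without the 2 VAS libraries low in Malat1, Cd3e no longer passed the filter and 6, 6, 6 and 5 of the 8 members then tested were called, beside 38.1%, 45.9%, 43.2% and 36.2% of all genes. Gzma was gained in SVX_VAS and lost in VAS in that fit. In VAS the further lists then gave 6 T cell genes higher and 0 lower of 9 tested, 11 NK and innate lymphoid genes higher and 2 lower, 6 of 7 cytotoxic genes higher, and 7 common gamma chain genes higher and 5 lower.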

How the data were processed

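Raw counts per gene were deposited by the authors in 1 table. According to the study's methods, libraries were made from total RNA with a stranded kit, read from both ends, trimmed, aligned to GRCm38 with STAR and counted with featureCounts; the strand setting was not given in the sources used here. All 19 columns were used, and no row lacked a gene. Symbols and positions came from GENCODE and promoters from RefSeq. The 10 members and the gene lists were chosen with earlier results of these data known.

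The 17222 genes that reached 3 CPM in 3 or more libraries were fitted in edgeR 4.0.16 (R 4.3.3; TMM factors, glmQLFit, glmQLFTest, all 5 groups, no replicate block), with Benjamini-Hochberg FDR over all genes tested. Called means FDR of 0.05 or less and at least 1.5-fold. Standard errors are the logFC divided by the root of F, and intervals are 95%. CPM use TMM factors and log2 CPM a prior count of 2. Single values were tested with exact permutation tests in SciPy 1.17.1, unadjusted (40 between neighbouring groups, 30 against INT and 112 of ratios). The code was tested on simulated data. All 10 members are named, and from each further list the called genes, up to 5 with the largest logFC in INT against CONT, and the 5 genes most correlated with Il15, Gzma and Cd3e. Cd247, Styk1 and Foxp3, and the levels of Lat, Trbc2 and Gzmb, were singled out after their values were seen. Some genes that this rule names are not reported here.

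Depth of 12661266 to 31781270 counts makes 3 counts, the limit that a count of 0 allows, 0.0944 to 0.237 CPM of the total; this covers counting error only. Alternatives were other scaling factors, filters and tools (DESeq2 1.42.0, limma 3.58.1), fits on fewer libraries and a replicate block. Leaving out the libraries low in Malat1 or high in Ltf (over 500 CPM), the ratios and the tests against INT were chosen after seeing the data.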

Additional observations from a re-analysis of the deposited data

Results flagged for a closer look

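Among 40 sets of 4 libraries (10 members in 4 mated groups), 2 held a library far from the other 3, and about 2 are given by chance at this limit. Gzma in SVX replicate 2 stood at 3.98 CPM, with the other SVX libraries at 2.47 to 2.71 CPM. Il15 in VAS replicate 1 stood at 23.0 CPM, with the other VAS libraries at 29.96 to 30.1 CPM.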

How the results depend on the processing

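Of 1788 member logFC values under alternatives, 1684 kept direction and side of the threshold, 41 lost a call and 16 gained one. The other 47, none of them called, changed sign, all against INT (5 in SVX, 19 in SVX_VAS and 23 in VAS), the largest of them for Gzma in VAS, from 0.46 to -0.84 without VAS replicates 2 and 3. Leaving out 1 library at a time gave 5 to 7 members called in INT against CONT, 5 to 7 in SVX, 4 to 7 in SVX_VAS and 6 to 8 in VAS, 0 to 0 against INT, and 0 to 1 among the 4 mated groups, beside 28.5 to 36.3%, 37.4 to 42.4%, 33.5 to 39.8% and 35.7 to 47.8% of all genes against CONT and 0 to 3.34% in VAS against INT. Fitting only the libraries compared called 4 members in SVX against CONT, of the 6 tested there, beside 46% of all genes. The replicate block left the counts at 7, 7, 6 and 7 against CONT and 0 against INT, beside 32.5, 40.1, 37.2 and 39.3% of all genes against CONT. Same-numbered libraries did not pair: over 36 pairs, r of their deviations from group means ran from -0.69 to 0.58, 15 were over 0.1, and 4 of 19 libraries correlated best with their own number. Upper quartile factors moved the median of all genes by 0.13 to 0.20 (log2) against CONT and the VAS split from 3998 higher and 2967 lower to 4947 and 2073. With these factors Il15 and Il15ra were called in SVX and VAS (logFC 0.67 to 0.76), and the cause was not tested. Low counts (2 to 18 per estrus library for Cd3e and Cd3g) limit the precision of their folds.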

Other observations

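Foxp3, the transcription factor gene of regulatory T cells, was at 9.87 to 11.4 CPM in CONT, 11.0 to 12.5 CPM in INT, 10.7 to 11.6 CPM in SVX and 11.1 to 12.0 CPM in SVX_VAS. It was at 0.278 and 0 CPM (6 and 0 counts) in the VAS libraries low in Malat1, replicates 2 and 3, which had the highest Gzma values, and at 11.0 and 12.6 CPM in VAS replicates 1 and 4. Foxp3 was not called in any comparison with CONT by edgeR (FDR 0.448 to 0.953). In CONT the T cell gene Cd3e was at only 0.177 to 0.571 CPM, far under Foxp3. Which cells the Foxp3 reads came from was not tested, so they are not taken as a measure of regulatory T cells.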
